A study of Homo sapiens with 2 samples.

Results

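The gene-proximal CREB peaks of NGP cells were the peaks with a summit more than 1 kb and at most 10 kb from the nearest transcription start site (TSS). CREB was mapped by chromatin immunoprecipitation and sequencing (ChIP-seq) in NGP, an established human neuroblastoma line. A TSS was one that the authors' deposited table pairs with the peak, and that table gives 1 TSS per gene symbol. Peaks on chromosomes 1 to 22 and X were taken, and summits in 1 Mb windows holding 10 or more peaks were left out. The rule gave 259 of the 5285 deposited peaks (4.90%, 95% interval 4.33 to 5.52), or 14.3% (12.7 to 16.0) of the 1808 peaks outside such windows. The peaks were chosen by the measured distance of the summit from the TSS, so their number and their distances are a description.

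The series comprised 1 CREB ChIP library and 1 input library, which is DNA taken without the immunoprecipitation. Both came from NGP cells with no stated genetic change, grown in 20% serum and collected at 80 to 90% confluency. Libraries were built from 4 ng of DNA and size selected at 250 to 450 bp. The design text names CAMKV, a kinase-like protein of calcium/calmodulin signalling that lacks catalytic activity, and the question of which genes lie downstream of it through CREB. There was no replicate of either library and no cells with altered CAMKV or CREB, so no difference between groups of peaks could be set against an error between cultures. The 95% intervals below are exact intervals and cover counting error only.

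CREB is a basic leucine zipper transcription factor that is phosphorylated when cAMP or calcium rises, by protein kinase A and by calcium/calmodulin-dependent kinases among others. It binds the cAMP response element, the palindrome TGACGTCA, or the shorter core TGACG, and in many cell types the sites it occupies lie close to the start of a gene. A summit farther from the start can fall in a first intron, in a neighbouring gene, at an alternative start that the reference table does not list, or between genes.

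The DNA behind these peaks could be read only where a RefSeq promoter window (GRCh38.p14, 250 bases before to 50 bases after a gene start) met a peak. This was so for 3 of 249 peaks (1.20%, 0.249 to 3.48), the other 10 lying on a chromosome with no windows. Among the peaks at most 1 kb from a TSS (start peaks) it was so for 163 of 242 (67.4%), and among peaks 10 to 50 kb away for 4 of 525 (0.762%). All 3 windows belonged to an alternative start of the gene that the deposited table placed farther off. The 250 bases before each of these starts are shown 5′ to 3′ on the gene's strand because they are the promoter DNA closest to a summit. Capitals mark the core TGACG or its complement CGTCA.
TPM3, chr1:154183219-154183468, minus strand: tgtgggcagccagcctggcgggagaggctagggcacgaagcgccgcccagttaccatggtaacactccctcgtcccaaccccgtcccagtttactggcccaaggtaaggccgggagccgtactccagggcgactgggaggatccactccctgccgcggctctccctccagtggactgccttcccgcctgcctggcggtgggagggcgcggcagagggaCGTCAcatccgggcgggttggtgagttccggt
DDX19B, chr16:70298936-70299185, plus strand: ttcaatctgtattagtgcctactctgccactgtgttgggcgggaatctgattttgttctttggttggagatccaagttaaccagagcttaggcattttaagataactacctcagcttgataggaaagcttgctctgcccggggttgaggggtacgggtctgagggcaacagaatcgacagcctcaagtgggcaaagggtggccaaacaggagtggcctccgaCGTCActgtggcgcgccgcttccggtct
HNRNPUL1, chr19:41264122-41264371, plus strand: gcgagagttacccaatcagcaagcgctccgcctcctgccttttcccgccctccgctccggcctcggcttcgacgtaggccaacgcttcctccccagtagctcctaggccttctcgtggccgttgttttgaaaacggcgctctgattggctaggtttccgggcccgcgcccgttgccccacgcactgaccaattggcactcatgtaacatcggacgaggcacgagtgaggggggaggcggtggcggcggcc
TPM3 encodes a tropomyosin of the actin cytoskeleton. Its peak covered the whole window, with the summit 82 bp upstream of the RefSeq start, a fold enrichment of 8.26 and 10 fragments over an expected 0.331. The CGTCA lay 32 to 28 bases upstream of the start, and its centre was 52 bp from the summit. DDX19B, an RNA helicase of mRNA export, had its summit 91 bp downstream of the start, with a fold of 5.18 on 6 fragments. Its CGTCA stood 28 to 24 bases upstream, 117 bp from the summit and outside the peak. None of the 250 bases shown for DDX19B lay in its peak. HNRNPUL1, an RNA-binding protein, had its summit 255 bp upstream of the start, with a fold of 4.59 on 5 fragments. The peak covered 152 bp of its window, and neither the palindrome nor the core was in that window. The summit and the rest of this peak lay outside the window and were not read.

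Counting every RefSeq start, 9 of the 249 peaks lay at most 1 kb from one that the deposited table did not use, and 6 of these starts carried the symbol of the nearest gene. Besides the genes above, they were starts of UBB (899 bp downstream), PLEKHB1 (566 bp downstream) and FAM230F (290 bp downstream). The other starts belonged to EMSY-DT, CENPN and LOC124909439. For these peaks the distance of more than 1 kb held for the start in the deposited table and not for another annotated one.

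The gene nearest to a peak was also searched for the palindrome in its own promoter window, that is, at the start and not at the peak. It was present in 6 of 157 windows of genes nearest to a gene-proximal peak (3.82%, 1.42 to 8.13). The share was 56 of 186 (30.1%, 23.6 to 37.2) for start peaks, 6 of 356 (1.69%, 0.621 to 3.63) for 10 to 50 kb peaks and 540 of 27305 (1.98%, 1.82 to 2.15) for all genes, so the gene-proximal interval holds the share of all genes and ends below that of start peaks. The 6 genes are shown with 10 bases on either side, 5′ to 3′ on the gene's strand, with the palindrome in capitals, because a full element lay at a start of the gene nearest to a gene-proximal peak.
CMIP, chr16:81444701-81444728, plus strand: ttgccgccatTGACGTCAgaggggcggg
LIPE-AS1, chr19:42396966-42396993, plus strand: aagctatccaTGACGTCAgtcactatct
NUBPL, chr14:31561365-31561392, plus strand: cgttgctccgTGACGTCAtcactccgcg
PDLIM3, chr4:185535538-185535565, minus strand: ggcggggcggTGACGTCAcccccagcgg
RBM42, chr19:35629002-35629029, plus strand: cccgaatgtaTGACGTCAtgcgccagcg
ZNF460-AS1, chr19:57280444-57280471, minus strand: cccacggagaTGACGTCAcacgaagaag
The element lay between 24 bp (RBM42) and 172 bp (LIPE-AS1) upstream of the start. The gene-proximal peaks of these genes were weak. RBM42, a splicing-associated RNA-binding protein, had the highest fold among them, 6.08 on 7 fragments, 1967 bp downstream of the deposited TSS. RBM42 also had a start peak, at -17 bp from that TSS, with a fold of 8.36 on 10 fragments. PDLIM3, a PDZ and LIM protein of muscle, had 5.32 at 7567 bp upstream. CMIP had 4.01, and NUBPL, an assembly factor of respiratory complex I, LIPE-AS1 and ZNF460-AS1 each had 3.80.

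The core TGACG was in 44 of 157 windows (28.0%, 21.2 to 35.7), against 73.1% for start peaks, 25.3% for 10 to 50 kb peaks and 25.01% for all genes. The AP-1 motif TGANTCA was in 7.01% of the windows, against 7.76% for all genes, and the E-box CANNTG in 63.7% against 68.9%. Both strands were searched, and every palindrome also counts as a core. These matches are letters in a window and not sites of binding, and the windows of distant starts say nothing of the DNA under the peaks.

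**Figure D1:**
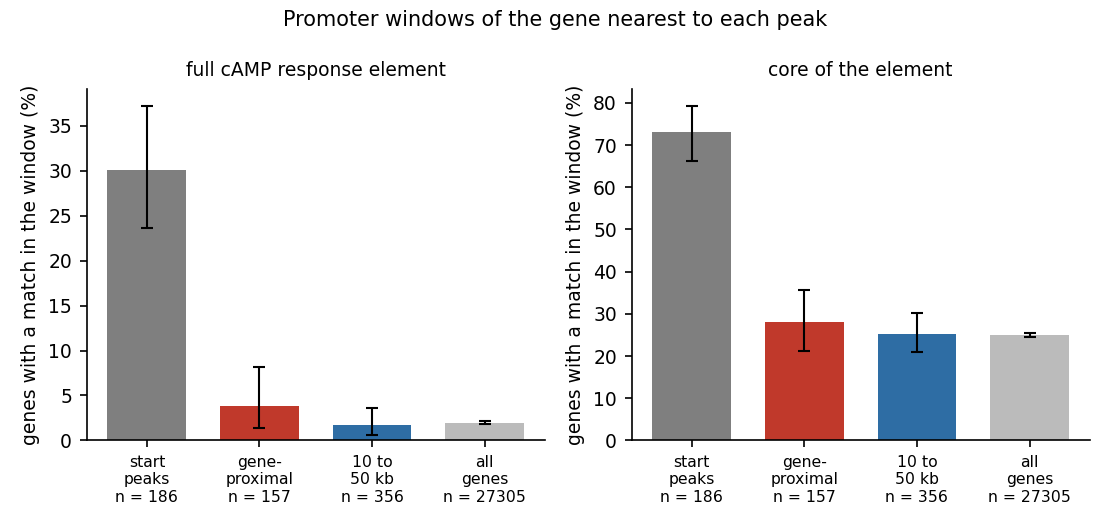
Share of RefSeq promoter windows (%, y axis) that hold the full palindrome (left) or the core (right), for the gene nearest to each start peak, gene-proximal peak and 10 to 50 kb peak, and for all genes. Bars are shares and lines are exact 95% intervals of counting error. The gene-proximal bars, 3.82% and 28.0%, stand near those of all genes, 1.98% and 25.01%, and below those of start peaks.

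Most gene-proximal peaks were small. Fold enrichment is the authors' own value for each peak, the ratio of fragments to expected background at the summit with 1 added to both. It is therefore lower than the plain ratio of fragments to background, most of all where the background is below 1. The fold is used only to describe and rank peaks of this list. Its median was 4.63 (quartiles 4.01 to 5.62), with a lowest value of 3.67 and a highest of 159. Start peaks had a median of 5.62 (4.82 to 7.22), 10 to 50 kb peaks 4.56 (4.01 to 5.52) and peaks with no paired TSS within 50 kb 4.56 (4.01 to 5.32), all outside the dense windows. The gene-proximal median therefore differed by -0.992 from that of start peaks and by 0.068 from that of 10 to 50 kb peaks. Among peaks with a −log10 q of at least 5 both differences changed sign, to 0.255 and to -0.102.

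The number of fragments behind each summit was recovered from the deposited fold and p. The median gene-proximal summit held 5 fragments (quartiles 4 to 6), 78 summits held 4, 77 held 5 and 42 held 6. At most 6 fragments lay under 197 of the 259 summits (76.1%, 70.4 to 81.1), against 50.2% of start peaks. Over such low numbers the fold takes few values, and 31 peaks shared the value 4.01, 27 the value 3.80 and 26 the value 4.82. The 10 peaks with the highest fold held 32.1% of all 2536 fragments. The background was below 1 fragment in all but 8 peaks. Peaks were narrow, with a median width of 222 bp (178 to 288).

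A small upper tail stood beside this mass. A fold of at least 10 was reached by 19 gene-proximal peaks (7.34%, 4.47 to 11.2), against 4.65% of all 1808 peaks outside the dense windows. The share was 9.96% (6.55 to 14.4) of start peaks, 4.20% (2.68 to 6.23) of 10 to 50 kb peaks and 2.27% (1.33 to 3.60) of peaks with no paired TSS. A fold of at least 20 was reached by 7 gene-proximal peaks (2.70%, 1.09 to 5.49) and 3 start peaks (1.20%, 0.247 to 3.45). The same fold was reached by 9 of the 10 to 50 kb peaks (1.64%) and 3 peaks with no paired TSS (0.4%). The 7 gene-proximal peaks include both stronger peaks inside CAMKV, so they stand for fewer genes than peaks. A −log10 q of at least 5 was reached by 52 gene-proximal peaks (20.1%, 15.4 to 25.5), near the 19.5% of all 1808 peaks. Among start peaks it was reached by 107 (42.6%, 36.4 to 49.0). The intervals of the fold shares overlap between gene-proximal and both neighbouring classes, whereas those of the q share do not overlap between gene-proximal and start peaks.

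**Figure D2:**
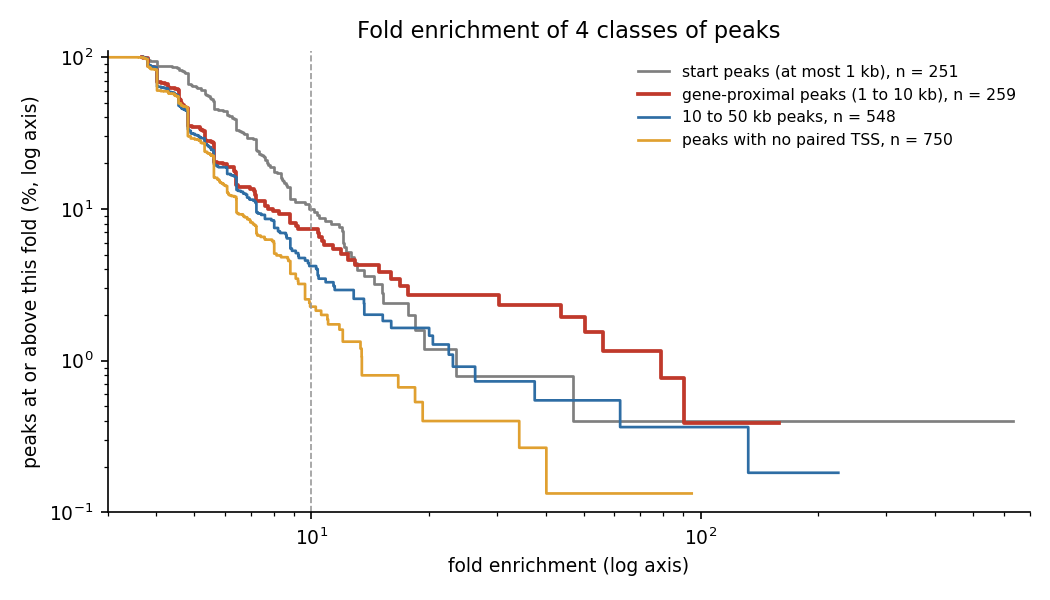
Share of peaks (%, log y axis) at or above each fold enrichment (log x axis) in 4 classes of peaks by distance from the nearest paired TSS, with the dashed line at a fold of 10. The gene-proximal line runs with the 10 to 50 kb and unpaired lines at low fold, well below the start peaks, and lies between start peaks and 10 to 50 kb peaks at a fold of 10 (7.34%).

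**Figure D3:**
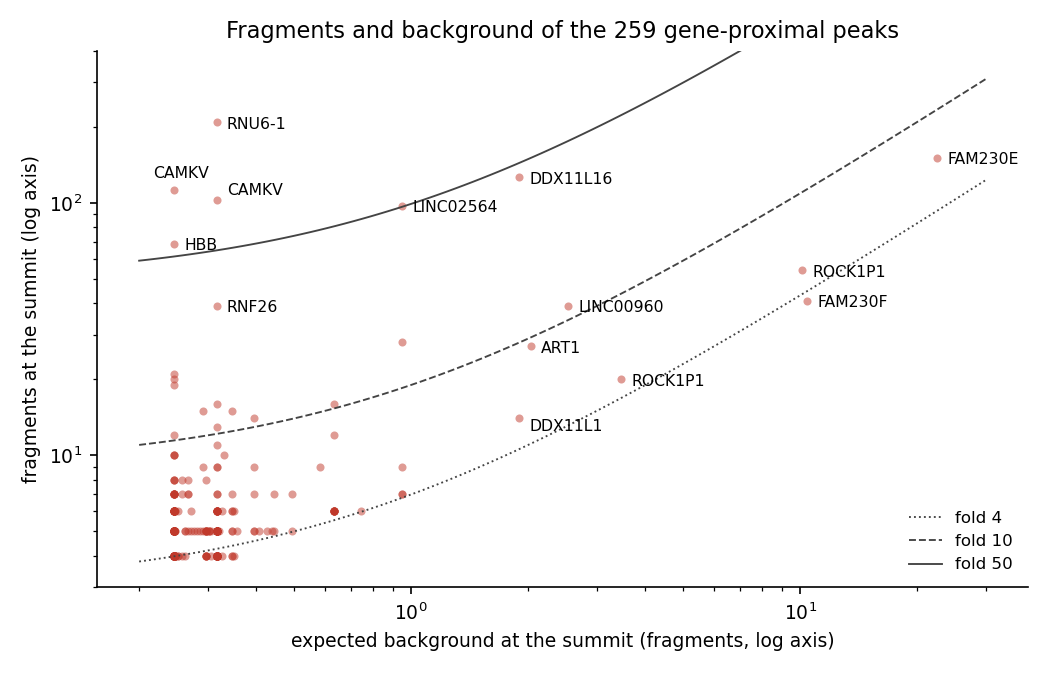
Fragments at the summit (log y axis) against expected background at the summit (fragments, log x axis) for each of the 259 gene-proximal peaks, with lines at folds of 4, 10 and 50. Most points lie at 4 to 6 fragments over a background near 0.25 to 0.32. RNU6-1, CAMKV and HBB stand high over a low background, and FAM230E and ROCK1P1 stand high over a high background.

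The number of peaks fell with distance. The first kb around a TSS held 251 peaks, the second 48, the third 40 and the fourth 27, and each further step up to 10 kb held 18 to 26. Beyond 10 kb the number per kb was 21 up to 20 kb and 7.80 between 40 and 50 kb. Just inside the lower bound lay LINC02564 at 1010 bp (fold 50.3), ZNF165 at 1011 bp and CMC2 at 1011 bp (both 4.01). Just outside lay SNAR-A1 at 997 bp (4.01), RAB5IF at 961 bp (4.90) and EPN3 at 956 bp (4.01). At the upper bound, REV1 at 9998 bp (3.80), AGAP9 at 9928 bp (3.99) and PCGF3 at 9902 bp (4.75) lay inside, and LOC102723838 at 10142 bp (4.82), TMEM26 at 10160 bp (4.01) and RCN3 at 10166 bp (3.89) outside.

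Summits lay upstream of the nearest TSS in 115 peaks (44.4%, 38.3 to 50.7) and downstream in 144. Of start peaks 62.4% (56.1 to 68.4) lay upstream, and of 10 to 50 kb peaks 44.3% (40.1 to 48.6). The share was 45.8% between 1 and 2 kb, 37.6% (27.4 to 48.8) between 2 and 5 kb and 48.4% between 5 and 10 kb. The median fold was 4.82, 4.56 and 4.61 in these 3 steps.

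**Figure D4:**
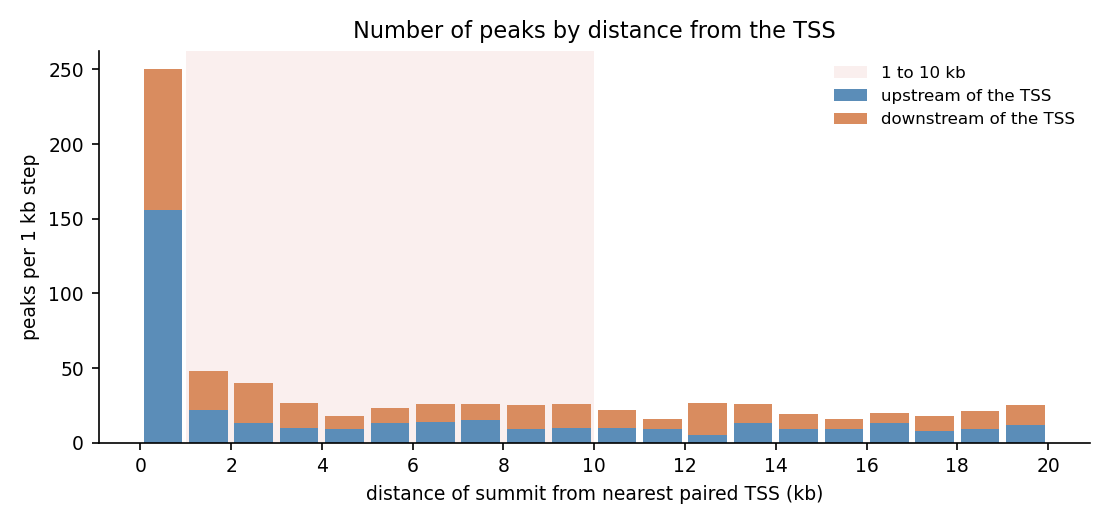
Number of peaks per 1 kb step (y axis) by distance of the summit from the nearest paired TSS (kb, x axis), stacked by side, outside dense windows, with the 1 to 10 kb range shaded. The first step holds 251 peaks and the second 48, and the steps from 4 to 10 kb hold 18 to 26 each.

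By RefSeq gene positions, 175 gene-proximal summits lay inside a gene (67.6%, 61.5 to 73.2), and 146 inside a protein-coding gene (56.4%). Inside a gene lay 49.8% of start peaks, 64.2% of 10 to 50 kb peaks and 48.4% of peaks with no paired TSS. The gene was the nearest one itself for 116 peaks, another gene only for 59, and none for 84. Downstream summits mostly fell in the body of the nearest gene (114 of 144), while 44 of the 115 upstream summits fell in another gene. Downstream of a TSS is the side of the gene body, so this contrast follows largely from how the side was defined. Where a summit lies in 1 gene and is nearest to the TSS of another, the table's pairing alone does not say which gene it belongs to. A single symbol was paired within 10 kb for 185 peaks, and 2 or more for 74 (28.6%). The nearest symbol was protein-coding for 186 peaks (71.8%), a lncRNA for 40, a transcribed pseudogene for 13 and a microRNA for 11. The median fold was 4.60 inside coding genes and 4.82 in the 84 peaks outside genes. Chromosomes 1, 3 and 19 held 22 gene-proximal peaks each, of 161, 101 and 73 peaks outside dense windows. Per 1000 protein-coding genes this was 10.7, 20.6 and 15.2. Chromosome 13 had the highest value, 29.6, which rests on 10 gene-proximal peaks and 338 protein-coding genes. Those 10 were of 61 peaks outside dense windows on that chromosome.

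**Figure D5:**
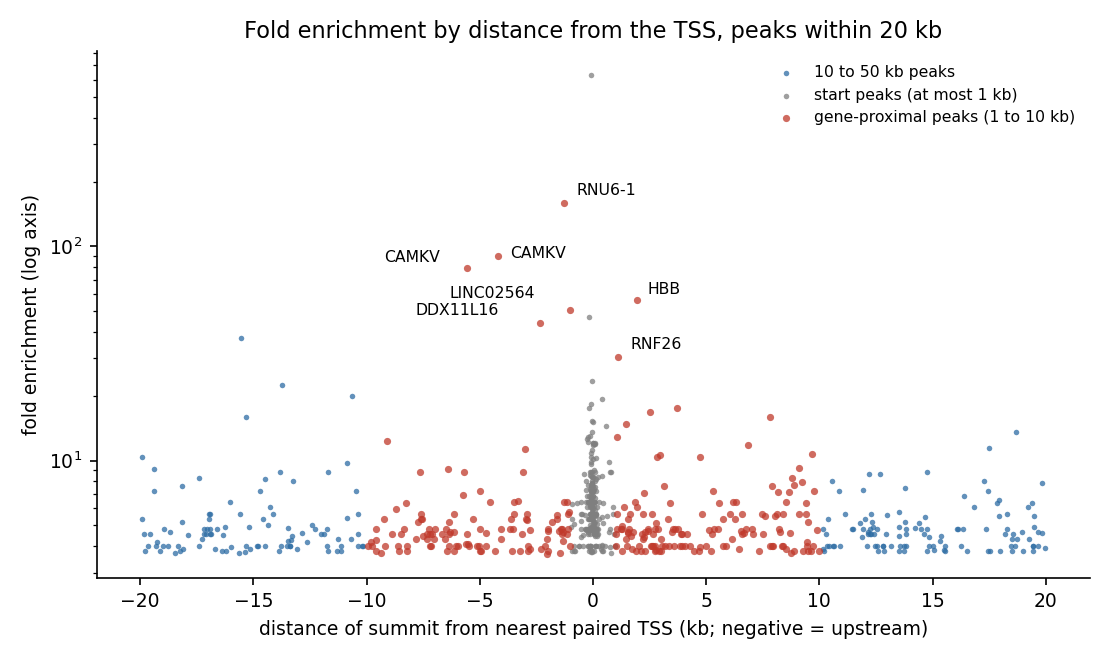
Fold enrichment (log y axis) of each peak within 20 kb against the distance of its summit from the nearest paired TSS (kb, negative upstream), for start, gene-proximal and 10 to 50 kb peaks. Most gene-proximal points lie between folds of 4 and 6 at every distance, and 7 named peaks lie above 20, from RNF26 at 30.4 to the peak at RNU6-1 at 159.

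Of the 19 peaks with a fold of at least 10, 12 lay downstream of the nearest TSS (63.2%, 38.4 to 83.7) and 12 lay in a protein-coding gene. The strongest of them, the third in the whole deposited list, was at chr15:67840029-67840324 with a fold of 159 on 208 fragments (95% interval 181 to 238) over 0.316 expected. Its nearest TSS was that of LOC101929076, 1281 bp away, but the peak overlapped RNU6-1, a gene for the U6 spliceosomal RNA (chr15:67839939-67840045), by 17 bp, with the summit 115 bp beyond it. U6 has near-identical copies in the genome, so the placing of reads in the overlapping part is uncertain.

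CAMKV carried 3 gene-proximal peaks, all inside its gene (chr3:49857989-49869906) and all nearest to the TSS of TRAIP, a ubiquitin ligase of the replication fork. The peak at chr3:49860462-49861585 had a fold of 90.7 on 112 fragments (92.2 to 135) and lay 9131 bp downstream of the CAMKV TSS. The peak at chr3:49862037-49862390 had 79.0 on 103 fragments (84.1 to 125), 7796 bp downstream. They ranked sixth and seventh of the whole list. A weaker one, with a fold of 5.62 on 6 fragments (2.20 to 13.1), lay 10.4 kb downstream, nearer to the end of the gene. The distance to the TRAIP TSS was 2929 to 5546 bp upstream, so the stronger peaks lay within 10 kb of both TSS and the weak one within 10 kb of the TRAIP TSS only.

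CAMK1, a calcium/calmodulin-dependent kinase whose family includes kinases that phosphorylate CREB, had a peak at chr3:9762949-9763227 with a fold of 11.9 on 15 fragments (8.40 to 24.7). It lay 6865 bp downstream of the TSS, inside CAMK1 and also inside OGG1, which encodes a DNA repair glycosylase. CAMKV and CAMK1 were the only genes of the list of 29 for calcium/calmodulin signalling with a gene-proximal peak (6.90%). The share of 19974 protein-coding genes was 1.14%. The list was chosen with earlier results of these data known and its share rests on 2 genes, so it is a description and not a sign of enrichment.

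HBB, the beta-globin gene of red cells, had a peak at chr11:5224899-5226127 with a fold of 56.2 on 69 fragments (53.7 to 87.3). The summit lay 361 bp past the gene's 3′ end. RNF26, a ring finger ubiquitin ligase of the endosomal system, had a peak inside its gene with a fold of 30.4 on 39 fragments (27.7 to 53.3), 1097 bp downstream. Both peaks were wide, 1229 and 1317 bp, as was the CAMKV peak of highest fold, 1124 bp, beside a median of 222 bp. The expected background was 0.246 for HBB and 0.316 for RNF26. The input library has no processed file here, so input signal and the placing of reads at HBB, RNF26 and CAMKV were not tested. The 7 peaks of at least 800 bp among the gene-proximal ones all had a fold of 8.83 or more.

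UBB, a polyubiquitin gene that encodes ubiquitin as tandem repeats, had a peak in the gene body with a fold of 14.9 on 28 fragments, 1447 bp downstream of its TSS. Ubiquitin repeats are near-identical among genes and pseudogenes, so the assignment of reads to UBB is uncertain.

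Further strong peaks lay in genes of transcription control. MXI1, a partner of MAX that opposes MYC, had a fold of 17.7 on 21 fragments, 3703 bp downstream, and PRDM11, a PR-domain protein, had 16.1 on 19 fragments, 7824 bp downstream. Genes of other functions followed. A peak inside TYMS (thymidylate synthase) and ENOSF1, with TYMSOS as nearest gene, had a fold of 12.4 on 15 fragments. COL23A1, a transmembrane collagen, had 10.4 on 16 fragments at 4709 bp downstream. CD74, the invariant chain of MHC class II, had 10.6 on 13 fragments at 2985 bp downstream, and 7.10 on 8 fragments at 2264 bp. KRT14, a keratin of basal epithelium, had 10.4 on 12 fragments, and OR2T1, an olfactory receptor gene, 16.9 on 20 fragments, 480 bp past the gene's end. ART1, an ADP-ribosyltransferase, was the next below 10, with 9.25 on 27 fragments over an expected 2.03.

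The remaining strong peaks lay at chromosome ends or in duplicated sequence. LINC02564, in the deposited table, had a peak at chr10:10004-10396 with a fold of 50.3 on 97 fragments (78.7 to 118), while RefSeq places a gene of that symbol on chromosome 18. DDX11L16, of the DDX11L pseudogene family near telomeres, had one at chrX:156030362-156030739 with 43.8 on 126 fragments (105 to 150) over 1.90. LINC00960 had 11.3 on 39 fragments at DUX4L26, a DUX4-like pseudogene, and LOC105376306 had 10.7 on 14 fragments at EEF1A1P5, a processed pseudogene of the elongation factor EEF1A1. For these multicopy sequences the assignment of reads to 1 copy is uncertain. Within 1 Mb of a chromosome end, judged from the chromosome's start and its last gene, lay 22 gene-proximal peaks (8.49%, 5.40 to 12.6), 4 of them with a fold of at least 10. The share was 3.59% of start peaks, 6.39% of 10 to 50 kb peaks and 1.87% of peaks with no paired TSS.

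High fragment counts did not always mean high fold. FAM230E, a lncRNA gene of a duplicated family on chromosome 22, had 151 fragments and a fold of 6.48, over an expected 22.5. FAM230F had 41 fragments over 10.4 and a fold of 3.67, the lowest of the gene-proximal peaks. ROCK1P1, a ROCK1 pseudogene, had peaks of 54 fragments over 10.1 (4.95) and 20 over 3.47 (4.70). DDX11L1 had 14 fragments over 1.90 and a fold of 5.18. Of the genes with more than 1 peak nearest to them, LOC101927691 had 8.83 and 7.22, MST1L 5.50 and 4.56, and MIR6726, whose peaks lay inside SCNN1D, 5.62 and 4.01. In all, 251 distinct symbols were nearest to the 259 peaks and 7 had more than 1.

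Few genes had a gene-proximal peak, both in the lists for this cell type and pathway and among all protein-coding genes. Of 521 distinct genes in 15 lists, 14 had such a peak (2.69%), beside 1.14% of all protein-coding genes, and 7 lists had none. The lists were chosen with earlier results of these data known, so the shares are a description. At so low a share among all genes, an empty list of this size says little about its genes. The lists without any were the CREB family (14 genes), cAMP and protein kinase A signalling (33), adrenergic identity (22), neuroblastoma oncogenes (34), axon guidance (45), cytoskeleton (42) and cell cycle (42).

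Of 53 known CREB-responsive genes, 2 had a gene-proximal peak (3.77%). PER1, a clock gene, had a fold of 4.68 on 5 fragments, 1983 bp upstream of its TSS. STAR, the cholesterol carrier of steroid synthesis, had 4.63 on 5 fragments, 6308 bp upstream. Both were near the median of the gene-proximal peaks. VAMP2, a synaptic vesicle protein and the only hit of 47 ion channel and synapse genes, was paired with the PER1 peak, 8561 bp downstream of its own TSS. VIM, the only hit of 28 mesenchymal-state genes, had 4.29 on 6 fragments over 0.632, 7341 bp upstream and inside VIM-AS1.

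Among translation genes (2 of 38) were EIF3A (4.56) and PABPC1 (4.01), both in the gene body. SDHA, a subunit of respiratory complex II and the only hit of 42 respiratory genes, had the highest list value outside the strong peaks, 7.17 on 9 fragments, 8733 bp upstream and inside CCDC127. Among apoptosis and DNA damage genes (3 of 38) were FADD (4.56), 8896 bp upstream of its TSS, and ERCC1 (4.11), 5619 bp upstream. HBB and KRT14 were the hits among 34 markers of other cell types.

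By symbol family, 6 peaks were nearest to ZNF genes (2.32%, folds 3.80 to 5.32), 11 to microRNA genes (4.25%, 3.86 to 5.62), 16 to LINC genes (6.18%) and 12 to antisense genes (4.63%). The same families took 1.82%, 5.11%, 8.21% and 3.65% of 10 to 50 kb peaks. Members chosen after their values were seen include the neuronal transcription factor genes NEUROG1 (4.82, 1373 bp upstream) and NEUROD2 (4.01, 9204 bp upstream), and GAPDH, a glycolytic enzyme gene, with 5.32 on 6 fragments in its body. A GAPDH pseudogene, GAPDHP65, had 4.82 on 5 fragments.

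The rule left out 101 peaks 1 to 10 kb from a TSS because they lay in 8 dense windows, 46 of them on chromosome 21. Their median fold was 5.62. With them the share inside a gene was 61.4%.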

How the data were processed

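One CREB ChIP library of NGP cells was analysed, with 1 input library that has no processed file here. Bowtie2, MACS2 and build hg38 are named per the submitters' processing notes; their versions and settings: not given in the sources used here. The authors deposited narrowPeak columns of fold (ratio), of −log10 p-value, of −log10 q-value and of a score. Truncating 10 × −log10 q gave the deposited score of every peak. The depth of the library is unknown.

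Scripts used Python 3.11.15, pandas 2.3.3, numpy 2.4.6, scipy 1.17.1 and matplotlib 3.10.9. Distances were summit to TSS in the deposited table of the authors. Fragments were solved from fold = (fragments + 1) / (background + 1) and a Poisson p, with a tolerance of 0.001 in −log10 p (a relative 1e-05 above 100). All 259 gene-proximal peaks were solved, 2 of them with 2 solutions. Of 1000 peaks simulated with the same formula and Poisson p, 1000 were recovered, which checks the solving and not the formula. Gene positions, starts and promoter windows were RefSeq GRCh38.p14, without 365 LOC genes whose positions resemble scaffold coordinates. Shares carry exact Clopper-Pearson intervals and fragments exact Poisson intervals, at 95%. Without replicates no test was made.

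Named genes were the nearest genes of the 20 highest folds, genes with several peaks, up to 3 per list, those nearest the distance bounds, and CAMKV, PER1, STAR, VIM and CAMK1. Genes of the sequence windows, of high backgrounds, and NEUROG1, NEUROD2, GAPDH and GAPDHP65 were picked with their values in view. The members and lists were chosen with earlier results of these data known. Motifs under the summits were not analysed here. Other thresholds, distances, windows and gene sets were tried. Some genes are not reported here.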

Additional observations from a re-analysis of the deposited data

How the results depend on the processing

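Results were recomputed with a −log10 q of at least 5, other distances, other windows, peak midpoints and protein-coding genes, and with every RefSeq window of a gene searched for the palindrome (an alternative added after the data were seen). Of 40 values, 32 did not reverse and stayed within 1.5 times the main count (numbers of peaks), within the main value's 95% interval (medians and shares) or within the width of the median's interval (differences). The difference from 10 to 50 kb peaks was 0 at distances of 2 to 10 kb. The number of peaks was 360 with no window left out and 207 with protein-coding genes only. With a −log10 q of at least 5 there were 52 gene-proximal peaks with a median fold of 7.85, of which 36.5% reached a fold of 10. The median difference then reversed to 0.255 against start peaks and to -0.102 against 10 to 50 kb peaks. Distances of 1 to 5 kb left 133 peaks. The share inside a gene was 61.4% with no window left out and 56.4% when only protein-coding genes counted. These changes follow from which peaks or genes are counted. The planned search for motifs at summits needs a genome sequence and was not run. No paired analysis was possible because there was 1 library per group and no test. The weak peaks rest on few fragments: the CAMKV peak of 6 has a counting interval of 2.20 to 13.1. The depth of the library is unknown, and its part was not tested.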
